A study of Astyanax mexicanus with 78 samples.

Results

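The 100 genes described here were the liver genes whose level differed most between fish of the same population and age class. They were chosen from the 19076 genes of the liver count table. Of these, 2371 had a mean of at least 20 CPM (a gene's count scaled to a library total of 1000000) over the 16 liver libraries, and 2216 also had a liver median under 16 times the highest median of any other tissue. For each gene the SD of log2(CPM + 1) was computed within each of the 4 fish groups, and the 100 genes with the highest median of the 4 SDs were kept. The liver values themselves made this choice, so the spread of the members within liver groups is given as a description and was not tested.

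The study sequenced RNA from brain, gut, heart, liver and muscle of the Mexican tetra, *Astyanax mexicanus*, with the aim of comparing aging of gene expression between blind Pachón cavefish and eyed surface fish, and 78 libraries were analysed. In liver there were 4 libraries each of aged cavefish (7 to 8 years; numbers 5 to 8), young cavefish (1 year; numbers 1 to 4), aged surface fish (7 to 8 years; numbers 5 to 8) and young surface fish (1 year; numbers 1 to 4). No mutation, transgene or treatment is named for any of these groups, and the labels give neither sex nor feeding state. Young cave 4 is young by its label, which was followed here, although a supplement of the study lists it among aged fish. The sources do not state that each library was a separate fish, so p-values measure the spread between these libraries. Fewer cells of a type and less RNA per cell cannot be told apart in bulk tissue.

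The liver makes glucose between meals, stores and burns fat, and secretes many proteins of the blood. Several of its genes follow the feeding state within hours: phosphoenolpyruvate carboxykinase and insulin-like growth factor binding protein are induced by fasting, glucokinase by feeding. Immediate early genes, such as those of the Fos and Jun families, answer growth factors, stress and handling quickly in many tissues. The absorptive cells of the gut, or enterocytes, carry another set, including peptide transporters and digestive enzymes of the brush border. These roles are known mostly from mammals and zebrafish, and names were available for 35 of the 100 members.

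The median SD of the members ranged between 1.85 and 4.22 on the log2(CPM + 1) scale, with a median of 2.17, against 0.77 over all 2216 genes that met the limits. By fish group, the median SD of the members was 1.62 in aged cave, 2.73 in young cave, 2.39 in aged surface and 2.06 in young surface libraries. All 2216 genes gave 0.58, 0.94, 0.82 and 0.76 in the same order of groups, so the members and the genes at large were both most uneven in young cavefish. At the limit of the list, the last genes inside were ENSAMXG00000041399 (1.86), ENSAMXG00000010357 (1.86) and ENSAMXG00000026012 (1.85), and the first outside were atp1a1a.4 (1.85), ENSAMXG00000006416 (1.84) and ENSAMXG00000013308 (1.83). There was no step in the SD at this point. The mean liver level of the members lay between 20.4 and 6308 CPM, and 31 members had a count of 0 in at least 1 liver library. At the depth of these libraries, a count of 0 allows between 0.18 and 0.331 CPM, by counting error alone.

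Most members varied together. Deviations from the fish-group mean were correlated between members over the 16 libraries, and average linkage cut at a Pearson r of 0.6 placed 89 of the 100 members in 4 groups of at least 4 genes. These are called A (55 members), B (21), C (8) and D (5), and 11 members stayed outside them. The median r between members of a group was 0.74 in A, 0.94 in B, 0.75 in C and 0.89 in D. The groups were cut from the same values that they describe, so these correlations carry no test.

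**Figure D1:**
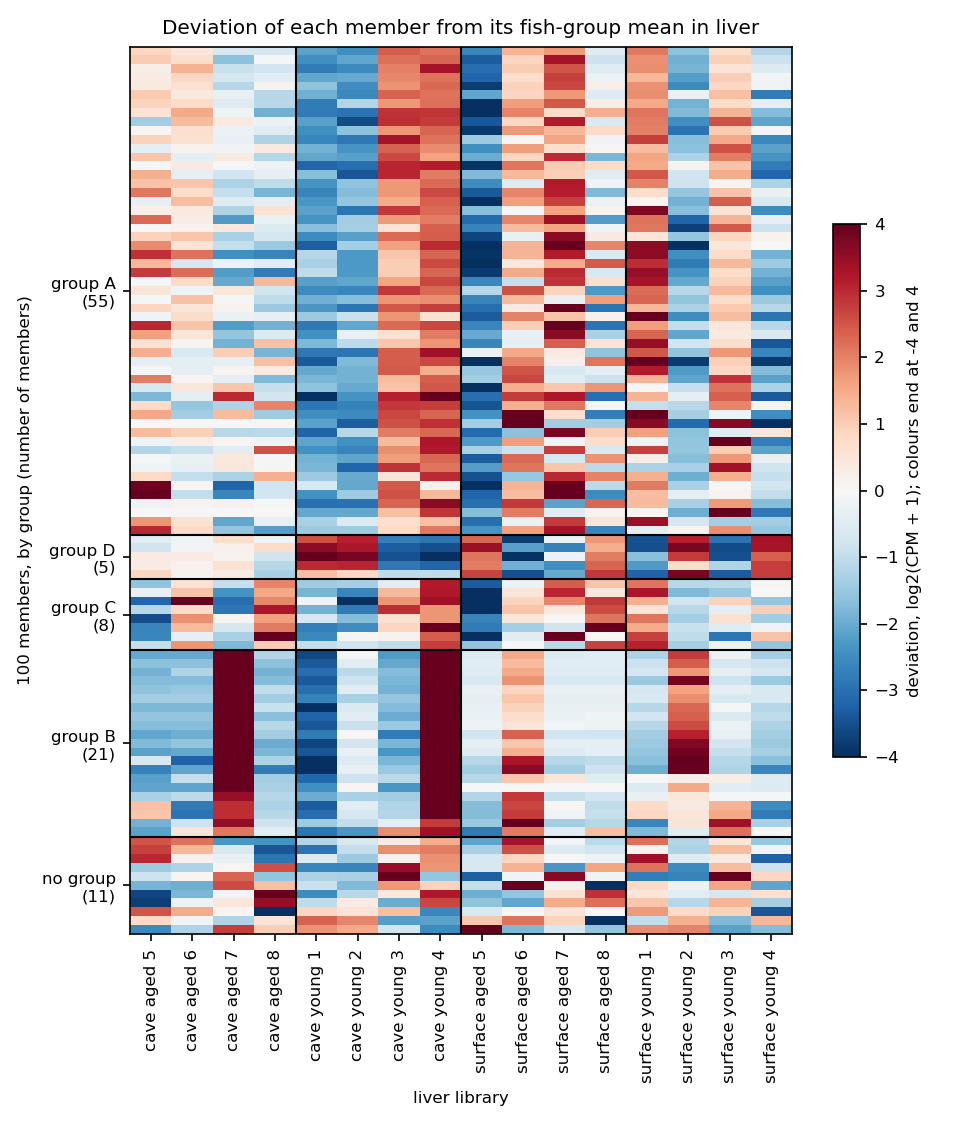
Deviation of each of the 100 members (rows, by group) from the mean of its fish group in each of the 16 liver libraries (columns), in log2(CPM + 1) units; red is above and blue below the group mean. Group A was high in young cave 3 and 4 and low in young cave 1 and 2, group D ran the other way, and group B was highest in aged cave 7 and young cave 4.

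Total counts of the liver libraries ranged between 9074319 and 16648992. The libraries differed in composition. A set of 5 abundant genes (ENSAMXG00000017461, ENSAMXG00000017475, ENSAMXG00000036269, ENSAMXG00000036364 and ENSAMXG00000038452), none of them a member, took over 2% of at least 1 liver library and under 0.05% of another. Their summed share was 42.6, 50.9, 59 and 42.3% in aged cave 5 to 8, 67.3, 72.8, 0.0169 and 0.0251% in young cave 1 to 4, 63.7, 0.00205, 9.15 and 49.4% in aged surface 5 to 8, and 0.0493, 57.1, 0.024 and 64% in young surface 1 to 4. Exact 95% intervals of these shares reached at most 0.0305 percentage points to either side, which covers counting error only. Aged cave libraries were alike in this share, while the other groups held libraries with most counts in these genes and libraries with almost none. The median of the 2371 genes deviated from its group mean by between -0.81 and 0.81 on the log2 scale. CPM totals include the 5 abundant genes, so a high share of these lowers the CPM of all other genes. How much of the shift came from this was not tested. The hepatocyte list matched 3 genes, which did not mark the liver here. The gene apoba, which encodes the apolipoprotein B of lipoprotein particles, was found in every liver library (62.9 to 5766 CPM) but had a median of 1086 CPM in liver against 4146 CPM in gut. For apoa1a the median was 0.509 CPM in liver against 198.4 CPM in gut, and rbp4l was at 0 in all liver libraries.

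Group A held 55 of the 100 members, 17 of them with a name. Its mean deviation was 0.81, 0.33, -0.62 and -0.53 in aged cave 5 to 8, -2.23, -2.13, 1.98 and 2.38 in young cave 1 to 4, -2.94, 1.24, 1.98 and -0.27 in aged surface 5 to 8, and 1.96, -1.73, 1.34 and -1.57 in young surface 1 to 4. Young cave 4 was the highest library of its fish group for 38 of the 55 members and young cave 3 for the other 17. In aged surface fish the lowest library was number 5 for 50 of the 55, and in young surface fish it was number 2 for 28 and number 4 for 27. Across the 16 libraries, the mean of group A correlated with the share of the 5 abundant genes at r = -0.84. With the median shift of all genes it correlated at r = 0.94. The CPM totals hold the abundant genes, so both values are partly built in and carry no test. The pattern of group A was shared widely: 1610 of the 2371 genes (67.9%) correlated with its mean above 0.6, on the same totals. After the median shift was subtracted, the mean of group A was 1.57 in young cave 4, 1.32 in young cave 3, -1.52 in young cave 1 and -1.33 in young cave 2. The typical SD of a member of group A over its deviations was 1.95 before and 1.57 after this subtraction. The members were chosen for their spread in CPM and grouped on these same deviations. That some deviation was left is thus partly built in and carries no test.

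Genes of fasting metabolism stood in group A. For pck1, the cytosolic phosphoenolpyruvate carboxykinase that commits carbon to glucose synthesis, the level was 4016, 1607, 571 and 388 CPM in aged cave 5 to 8, 42.5, 166, 1344 and 3407 CPM in young cave 1 to 4, 1.55, 1102, 7241 and 1655 CPM in aged surface 5 to 8, and 11264, 58.4, 1289 and 932 CPM in young surface 1 to 4. The lowest and highest libraries of aged surface fish, numbers 5 and 7, bracketed all other libraries but one, young surface 1. For ddit4, which restrains the growth kinase complex mTORC1 under stress, the level was 770.4, 1146, 611 and 516 CPM in aged cave 5 to 8, 41, 71.4, 771 and 1141 CPM in young cave 1 to 4, 21.1, 1049, 802 and 559.6 CPM in aged surface 5 to 8, and 2105, 66.3, 1081 and 486 CPM in young surface 1 to 4. It followed pck1 closely (r = 0.93 over 16 libraries). For plin2, a coat protein of lipid droplets, the level was 230.3, 420.3, 59.3 and 604 CPM in aged cave 5 to 8, 14.2, 15.4, 205 and 432 CPM in young cave 1 to 4, 41.9, 137, 1970.4 and 415 CPM in aged surface 5 to 8, and 997, 23.4, 189 and 21.2 CPM in young surface 1 to 4. In contrast to pck1, its highest aged cave library was number 8. Of the fasting and gluconeogenesis list, 8 genes had a mean of at least 20 CPM, and 4 of them were members (pck1, ddit4, plin2 and igfbp1a). Of the non-members, pdk4, an inhibitor of pyruvate oxidation, moved with the mean of group A at smaller spread (r = 0.91). So did ppargc1a, a coactivator of fasting genes (r = 0.86). This was not particular to fasting genes, since 67.9% of the 2371 genes had r above 0.6. Of the fatty acid synthesis list, dgat2 moved with group A too (r = 0.89) and acsl4a did not (r = -0.53).

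Immediate early genes were the other named set in group A. The level of fosab, a Fos subunit of the transcription factor AP-1, was 197, 53.3, 4.2 and 5.66 CPM in aged cave 5 to 8, 4.18, 7.85, 181 and 242 CPM in young cave 1 to 4, 9.02, 119, 1484 and 6.82 CPM in aged surface 5 to 8, and 169, 25.6, 71.1 and 23.2 CPM in young surface 1 to 4. Aged surface 7 stood above all other libraries, and the lowest fosab levels were in young cave 1, aged cave 7, aged cave 8 and aged surface 8. Deviations of fosab correlated with those of gadd45ba, a growth arrest gene, at r = 0.91 and with those of junbb, a Jun subunit of AP-1, at r = 0.78. Across libraries junbb ranged between 18.2 and 1668 CPM and gadd45ba between 9.05 and 1789 CPM. Of the immediate early list, 20 IDs were matched, 7 had a mean of at least 20 CPM and 3 were members. The early gene egr1, which was not a member, did not move with group A (r = -0.09).

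The named members closest to the mean of group A were ERRFI1, diabloa, junbb, slc25a48, ddit4 and hsd11b1la, with r between 0.91 and 0.96. The level of ERRFI1, a feedback inhibitor of the EGF receptor, was 173, 139, 26.5 and 83.4 CPM in aged cave 5 to 8, 7.09, 9.39, 200.2 and 221 CPM in young cave 1 to 4, 5.99, 128, 709.6 and 37.9 CPM in aged surface 5 to 8, and 299, 21.2, 163 and 45.6 CPM in young surface 1 to 4. Within young cavefish its levels in numbers 3 and 4 were far above those in numbers 1 and 2. The mitochondrial protein gene diabloa ranged between 157 and 18829 CPM, and the mitochondrial carrier gene slc25a48 between 4.99 and 1179 CPM. The unnamed gene ENSAMXG00000040073 had the largest median SD of group A (3.03), with 0, 0, 0 and 2.06 CPM in aged cave 5 to 8, 10.6, 34.2, 636 and 756 CPM in young cave 1 to 4, 5.08, 497, 144 and 554 CPM in aged surface 5 to 8, and 1564, 0.0666, 27.8 and 0.0601 CPM in young surface 1 to 4. It was at or near 0 in every aged cave library and in young surface 2 and 4.

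**Figure D2:**
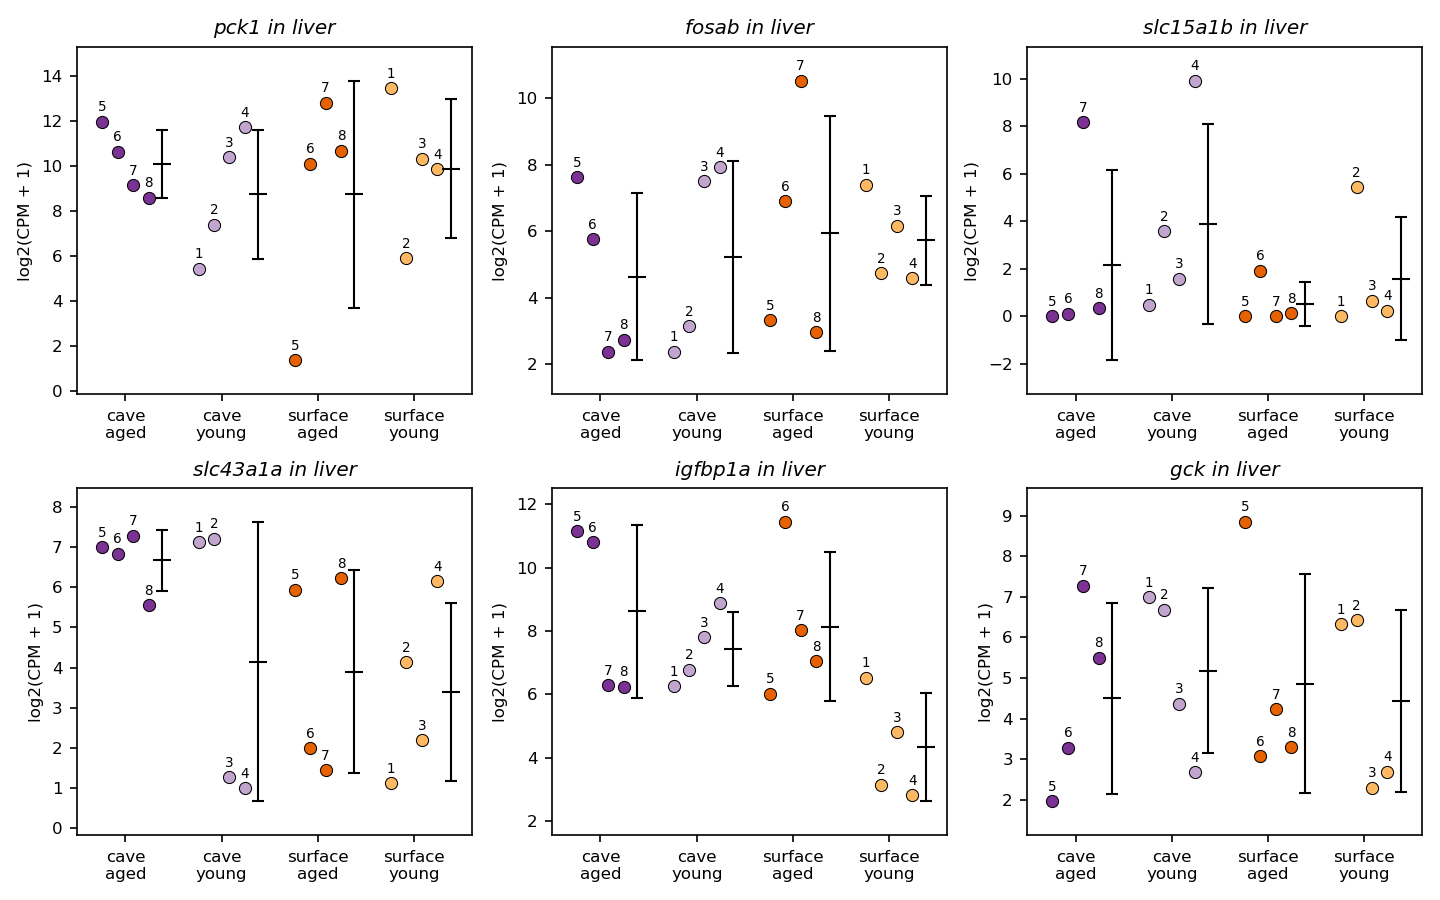
Level in log2(CPM + 1) of 6 members in the 16 liver libraries, with the library number above each point; the bar beside each fish group is its mean ± SD (n = 4). Within single groups pck1 spanned 1.55 to 7241 CPM (aged surface), and slc15a1b was highest of its fish group in aged cave 7, young cave 4, aged surface 6 and young surface 2.

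Group D was the mirror of group A. Its 5 members were ENSAMXG00000021336, ENSAMXG00000006267, ENSAMXG00000017484, ENSAMXG00000005463 and slc43a1a, which encodes a transporter of large neutral amino acids. Group means of D and A correlated at r = -0.92 over the 16 libraries. The mean of group D followed the share of the 5 abundant genes at r = 0.96, and 1695 of the 2371 genes (71.5%) correlated with it below -0.6. Only 30 genes (1.27%) correlated with it above 0.6. The abundant genes are part of the CPM totals, so the 71.5% is partly built in, and these values carry no test. Its mean deviation was between -0.52 and 0.39 in aged cave fish, where the share of the abundant genes varied little.

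The level of slc43a1a was 127, 113, 155 and 45.8 CPM in aged cave 5 to 8, 139, 147, 1.42 and 0.992 CPM in young cave 1 to 4, 60.2, 2.98, 1.72 and 73.8 CPM in aged surface 5 to 8, and 1.18, 16.5, 3.56 and 70.21 CPM in young surface 1 to 4. All aged cave libraries were thus at 45.8 CPM or above, while each other group held 2 libraries under 4 CPM. The third-ranked member of all, ENSAMXG00000021336, gave 192, 306, 372 and 548 CPM in aged cave 5 to 8, 499.7, 396, 3.23 and 2.64 CPM in young cave 1 to 4, 772, 14.8, 9.85 and 192 CPM in aged surface 5 to 8, and 2.36, 521, 2.21 and 377 CPM in young surface 1 to 4. Its libraries fell into a high and a low set in young cave, aged surface and young surface fish, without intermediate values. Subtracting the median shift raised the typical SD of group D from 2.55 to 3.07. This was set in advance, because the mean of group D ran against the shift (r = -0.97). The 5 members and the 5 abundant genes moved in the same libraries in the same direction, against most other genes.

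**Figure D3:**
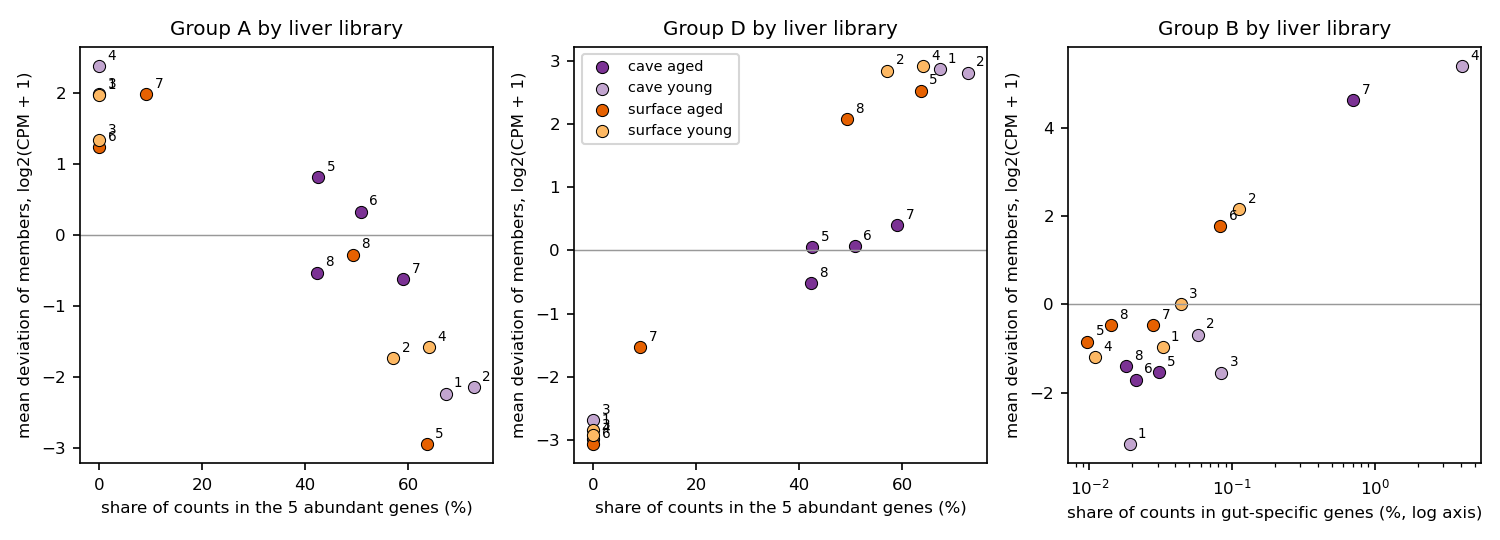
Mean deviation of the members of groups A, D and B (vertical axes, log2(CPM + 1)) in the 16 liver libraries against the share of counts in the 5 abundant genes (A and D) or in 135 gut-specific genes (B, log axis); points carry library numbers and colours give the fish group. Group A fell and group D rose along the first share (r = -0.84 and 0.96), which is part of the CPM totals. Group B rose along the second (r = 0.98), which counts 18 of its 21 members.

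Group B held genes of the gut. It contained 21 members, 10 of them named, and 18 of the 21 belonged to 135 genes with a gut median of at least 100 CPM and 16 times that of every other tissue. The median level of its members was 0.468 CPM over liver libraries, against 849 CPM over gut libraries, and all 21 were higher in gut than in liver. In liver they were concentrated in single libraries: aged cave 7 and young cave 4 were the highest of their fish groups for all 21, and aged surface 6 for 20 and young surface 2 for 17 of them. The mean deviation of group B was 4.63 in aged cave 7, 5.41 in young cave 4, 1.78 in aged surface 6 and 2.17 in young surface 2. Its r with the share of liver counts in the 135 gut-specific genes was 0.98 (both on a log2 scale, n = 16). Because 18 members are also counted in that share, this r is partly built in and carries no test. That share was 0.0306, 0.0212, 0.702 and 0.0179% in aged cave 5 to 8, 0.0191, 0.0575, 0.0841 and 4.05% in young cave 1 to 4, 0.00966, 0.0827, 0.028 and 0.0141% in aged surface 5 to 8, and 0.0325, 0.112, 0.0438 and 0.011% in young surface 1 to 4. Exact 95% intervals reached at most 0.0128 percentage points to either side. In gut libraries the same genes took between 24.9% and 56.9%. Group B alone took 2.89% of the liver counts of young cave 4 and 0.459% of those of aged cave 7. Young cave 4 thus stood apart from the other 15 liver libraries, and aged cave 7 came next.

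The peptide transporter gene slc15a1b gave 0, 0.0807, 288 and 0.257 CPM in aged cave 5 to 8, 0.394, 11, 1.99 and 976 CPM in young cave 1 to 4, 0, 2.79, 0 and 0.091 CPM in aged surface 5 to 8, and 0, 42.4, 0.57 and 0.18 CPM in young surface 1 to 4. Its highest liver value, in young cave 4, was close to the gut median of 955 CPM. The second peptide transporter gene, slc15a1a, moved with it (r = 0.99) and reached 1423 CPM in young cave 4. The member with the largest spread of all 100, ENSAMXG00000009870, gave 0.0823, 0.646, 1422 and 0 CPM in aged cave 5 to 8, 4.1, 93.4, 40.1 and 9259.8 CPM in young cave 1 to 4, 0, 30.5, 0 and 0.455 CPM in aged surface 5 to 8, and 0.554, 325, 1.64 and 0 CPM in young surface 1 to 4. Its gut median was 4604 CPM. For fabp2, the intestinal fatty acid binding protein, the level was 0.165, 1.45, 50.01 and 1.46 CPM in aged cave 5 to 8, 11.7, 16.2, 25 and 237 CPM in young cave 1 to 4, 0, 44.6, 0.0782 and 0.273 CPM in aged surface 5 to 8, and 0.208, 9.59, 77.2 and 2.04 CPM in young surface 1 to 4. In young surface fish it was highest in number 3, as were 3 other members of group B, and its r with the group mean was 0.76. The lactate dehydrogenase gene ldha, which other tissues also express, gave 3.87, 4.84, 135 and 4.46 CPM in aged cave 5 to 8, 3.47, 6.16, 5.79 and 457 CPM in young cave 1 to 4, 4.02, 79.4, 5 and 5.64 CPM in aged surface 5 to 8, and 9.28, 16.2, 10.9 and 11.1 CPM in young surface 1 to 4. The same libraries, aged cave 7, young cave 4, aged surface 6 and young surface 2, were its highest.

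Other brush border genes of group B followed the same libraries. The intestinal alkaline phosphatase gene alpi.2, the aminopeptidase gene ANPEP, the trehalase gene treh, the fatty acid receptor gene cd36 and the scaffold gene pdzk1 each correlated with the group mean between r = 0.98 and 0.99. Their liver medians were between 0.186 and 0.655 CPM, and their highest values, in young cave 4, lay between 498 and 1372 CPM. Relative to the gut median, the 21 members were at 27.9% to 227% in young cave 4 (median 98.7%) and at 4.97% to 95.7% in aged cave 7 (median 15.98%). Over all 135 gut-specific genes the median was 27.9% in young cave 4 and 5.996% in aged cave 7. The members were chosen by a limit on the mean liver level and by their spread. Both rested largely on their levels in these same libraries. The higher medians of the members than of all 135 genes are thus partly built in and carry no test. The enterocyte list matched 11 IDs, and 4 of the 11 were members. All correlated with group B (r between 0.76 and 0.99), but the members are part of the group mean. The IDs that were not members gave r between 0.85 (anpepb) and 0.98 (mep1a.2). Gut RNA in liver libraries and expression in the liver were not told apart by any test. Without aged cave 7 and young cave 4, only 2 of the 21 would have been chosen, while 50 of 55 in group A and all 5 in group D would have been kept.

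Group C was smaller and shared part of its pattern with group A. Its 8 members included the kinase gene pak6b, the purine nucleoside phosphorylase gene pnp5b and ENSAMXG00000008354, the second-ranked member of all. Its mean deviation was -1.99, 1.41, -1.62 and 2.20 in aged cave 5 to 8, -1.53, -2.09, 0.77 and 2.85 in young cave 1 to 4, -3.66, 0.12, 1.43 and 2.10 in aged surface 5 to 8, and 2.10, -1.17, -0.63 and -0.31 in young surface 1 to 4. In aged cavefish, numbers 6 and 8 were high and 5 and 7 low, a split that none of the other groups showed. Young cave 4 and young surface 1 were each the highest of their fish group for 7 of the 8 members, and aged surface 5 the lowest for all 8. In group A the same held for 38, 36 and 50 of the 55 members. ENSAMXG00000008354 gave 0, 176, 0.1 and 32.9 CPM in aged cave 5 to 8, 32.1, 0.147, 124 and 379 CPM in young cave 1 to 4, 0.0705, 102, 212 and 391 CPM in aged surface 5 to 8, and 754, 162, 531 and 95.9 CPM in young surface 1 to 4. Levels of at most 0.147 CPM in aged cave 5, aged cave 7, young cave 2 and aged surface 5 stood beside levels of 32.1 CPM and above in all other libraries. The level of pak6b was 1.56, 37.5, 9 and 66.1 CPM in aged cave 5 to 8, 0.158, 0.367, 13 and 157 CPM in young cave 1 to 4, 0.0705, 1.88, 3.28 and 223 CPM in aged surface 5 to 8, and 7.97, 0.732, 1.28 and 1.92 CPM in young surface 1 to 4. For pnp5b it was 13.2, 92.1, 6.9 and 54.6 CPM in aged cave 5 to 8, 4.33, 4.99, 4.08 and 68.4 CPM in young cave 1 to 4, 1.34, 5.95, 2.27 and 44.3 CPM in aged surface 5 to 8, and 82.2, 2.93, 7.48 and 2.28 CPM in young surface 1 to 4. Group C correlated with group A at r = 0.67 and with the median shift at r = 0.53.

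The 11 members outside these groups included igfbp1a and gck. The level of igfbp1a, the binding protein that holds back insulin-like growth factors in fasting, was 2259.5, 1785, 77.3 and 74.4 CPM in aged cave 5 to 8, 75.2, 109, 222 and 468 CPM in young cave 1 to 4, 64, 2805, 258 and 131 CPM in aged surface 5 to 8, and 91, 7.86, 26.8 and 6.07 CPM in young surface 1 to 4. Aged cave 5 and 6 and aged surface 6 were far above the rest of their groups. For gck, glucokinase, the gate of hepatic glucose uptake, the level was 2.88, 8.72, 154 and 44.1 CPM in aged cave 5 to 8, 126, 102, 19.6 and 5.4 CPM in young cave 1 to 4, 462, 7.41, 17.7 and 8.82 CPM in aged surface 5 to 8, and 79, 84.5, 3.92 and 5.47 CPM in young surface 1 to 4. It tended to be high where pck1 was low (Pearson r = -0.69, rank correlation -0.54, over 16 libraries). Aged surface 5 was the highest for gck and the lowest for pck1. Young surface 1 went the other way, with the highest pck1 (11264 CPM) beside gck at 79 CPM. A further member, KLF15, a transcription factor of amino acid use in fasting, was singled out after its values were seen, with 207, 79.1, 19.2 and 1.97 CPM in aged cave 5 to 8, 5.67, 25.5, 188 and 211 CPM in young cave 1 to 4, 20.02, 306, 34.7 and 30.2 CPM in aged surface 5 to 8, and 107, 40.9, 241 and 89.5 CPM in young surface 1 to 4. It correlated with igfbp1a at r = 0.82 and with gck at r = -0.69. The cholesterol exporter gene ABCA1 and the creatine transporter gene slc6a8, also singled out in this way, shared aged cave 8 as their highest library and correlated at r = 0.81.

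Scaling changed the shape of groups A and C. With TMM scaling, which sets the totals by the bulk of the genes, 74 of the 100 members would have been chosen again (34 of 55 in A, 19 of 21 in B, 7 of 8 in C, 5 of 5 in D). With the 5 abundant genes left out of the totals, 54 would have been, and only 16 of the 55 in group A, against 20 of 21 in B and 5 of 5 in D. The median shift of the 2371 genes lay between -0.30 and 0.24 on TMM-scaled values, against -0.81 and 0.81 on CPM. On TMM-scaled values of the same 100 genes, groups B and D came out unchanged, while groups A and C were divided. Of the members of group A, 26 formed one set with slc25a48 and hsd11b1la, and 21 formed another with pck1, ddit4, fosab, junbb, gadd45ba, ERRFI1 and arl5c. A further 6, among them plin2, acsl4b and slc7a3b, joined 4 members of group C, and 2 stayed alone. The other 4 members of group C, with pak6b and pnp5b, formed a set of their own. The set with pck1 and fosab had mean deviations of 1.42 in aged cave 5, -1.42 in aged cave 7, 3.11 in aged surface 7 and -3.28 in aged surface 5. The set with slc25a48 had 0.07, 0.21, 0.83 and -2.26 in the same libraries.

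In other tissues the members were unequally present. Of the 100, 25 had a higher median in liver than in every other tissue. The limit on the liver median had left out the genes most particular to liver, so this count is partly built in. Among the other tissues the highest median was in gut for 47 members, in brain for 21, in heart for 21 and in muscle for 11. Shares over all 2216 genes that met the limits are not given for these counts, so they are not read as a trait of the members. The median level of group A was 29.2 CPM in liver, 20.3 in brain, 24.5 in gut, 21.9 in heart and 14.5 in muscle, each the median over members that differed widely among tissues. The median of pck1 was 1195 CPM in liver, 0 in brain, 2193 in gut, 17.9 in heart and 1.21 in muscle, and that of diabloa was 5375 CPM in liver and 9.62 CPM in muscle. ENSAMXG00000007577 stood the other way, at 2307 CPM in muscle and 59.4 CPM in liver. Group D was at 66.0 CPM in liver, 10.8 in brain, 4.13 in gut, 3.22 in heart and 0.675 in muscle. Group C was at 36.7 CPM in liver and between 1.98 and 8.45 CPM elsewhere. These levels were set across tables with different totals and were compared as descriptions only.

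**Figure D4:**
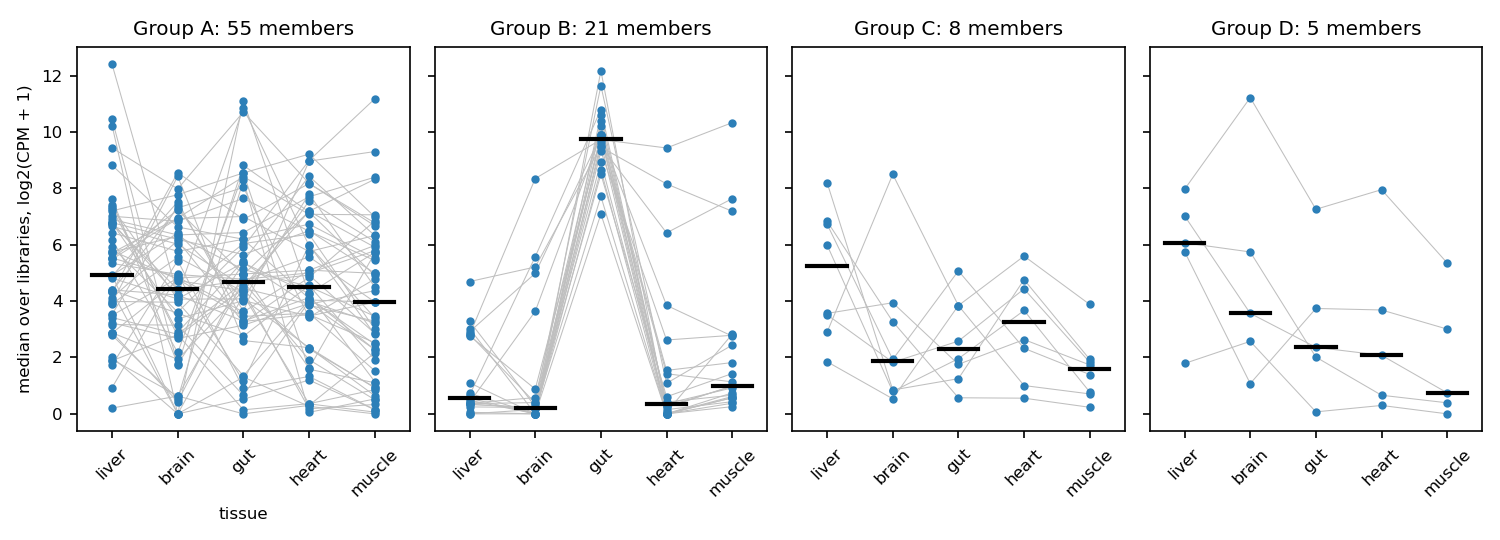
Median level of each member over the libraries of each tissue, in log2(CPM + 1), by group; grey lines join the values of a member and black bars are the median of the group. Group B stood at 849 CPM in gut against 0.468 CPM in liver, while group A was spread over all tissues.

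The members were also uneven within groups outside the liver. Of the 100, 40 had a mean of at least 20 CPM in brain, 68 in gut, 56 in heart and 38 in muscle. Their median SD was 0.20 in brain, against 0.13 for all 7755 genes at that level. In gut it was 0.93, against 0.40 for 4059 genes. In heart it was 0.93, against 0.49 for 5366 genes, and in muscle it was 0.75, against 0.47 for 3435 genes. The members placed 17 of 40 (42.5%) in the top 10% of brain genes by SD, 38 of 68 (55.9%) in gut, 25 of 56 (44.6%) in heart and 11 of 38 (28.95%) in muscle. The limit on the liver median used medians of these tissues, but the spread within their groups was not used to choose the members.

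Libraries carry the same numbers in each tissue, but the sources used here do not state that a number marks one fish. Deviations in liver were correlated with those of the same-numbered library in each other tissue, gene by gene. In heart the median r of 56 members was 0.41, against 0.23 for all 1870 genes present in both tissues, and 24 members (42.9%) exceeded 0.5, against 16.8% of the genes. One heart library, young cave 1, had 78.7% of its counts in 124 liver-specific genes, against 0.0438% to 16.4% in the other 15. The liver libraries held 33.9% (aged surface 6) to 78.6% (young cave 2) in these genes, so this heart library was as rich in them as liver. The spread in heart given above includes it, and without it 26 of 56 members (46.4%) were in the top 10%. Without this heart library, 19 of the 56 members (33.9%) exceeded r = 0.5, against 18.1% of the genes. In gut 15 of 68 members (22.1%) exceeded 0.5, against 19.1% of the genes. In brain they were 4 of 40 (10.0%, against 9.496%), and in muscle 4 of 38 (10.5%, against 8.41%). The members thus stood above the genes at large in heart and near them in brain, gut and muscle. Over all genes, each liver library was matched to the library of its fish group, at most 4, that correlated best with it. The match had its own number in 8 of 15 cases in brain and 12 of 15 in gut. In heart and in muscle it did so in 13 of 16 cases each. Without the liver-rich heart library it did so in 12 of 15. With so few candidates some matches arise by chance, and the expected number was not computed.

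The members with the closest match between liver and heart were arl5c (r = 0.88), fosab (r = 0.87), ERRFI1 (r = 0.87), slc43a1a (r = 0.76) and ENSAMXG00000034148 (r = 0.76). In liver, arl5c, a small GTPase of the Arf family, gave 54.2, 20.3, 5.6 and 2.57 CPM in aged cave 5 to 8, 1.18, 3.08, 44.4 and 84.9 CPM in young cave 1 to 4, 1.2, 87, 198.3 and 5.64 CPM in aged surface 5 to 8, and 13.9, 2.13, 19.2 and 6.67 CPM in young surface 1 to 4. In heart its level was 121, 38.7, 21.9 and 34.1 CPM in aged cave 5 to 8, 1.28, 21.6, 35.7 and 43.5 CPM in young cave 1 to 4, 22.8, 299.8, 323 and 24.7 CPM in aged surface 5 to 8, and 32.33, 7.26, 30.6 and 38.5 CPM in young surface 1 to 4. In both tissues aged cave 5 and aged surface 6 and 7 were high within their groups. For fosab the heart levels were 400.3, 44.3, 14.1 and 28.1 CPM in aged cave 5 to 8, 8.51, 17.5, 70.9 and 68.7 CPM in young cave 1 to 4, 250.3, 716, 2385 and 25.1 CPM in aged surface 5 to 8, and 26.9, 5.2, 33.7 and 25 CPM in young surface 1 to 4. Aged surface 7 was the highest for fosab in heart as in liver. Without the liver-rich heart library, r was 0.88 for arl5c, 0.86 for fosab, 0.85 for ERRFI1 and 0.71 for slc43a1a (n = 15). Heart levels of slc43a1a were 7.84, 33.7, 39.1 and 17.5 CPM in aged cave 5 to 8, 112, 31.2, 12.2 and 8.89 CPM in young cave 1 to 4, 11.4, 11.5, 7.81 and 35.2 CPM in aged surface 5 to 8, and 3.91, 6.72, 6.96 and 48.8 CPM in young surface 1 to 4. The heart library with the most liver-specific counts was the highest, and the part of liver RNA in the other values was not tested.

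The best matches in the other tissues were partly the same genes. In brain the highest r was that of ENSAMXG00000018482 (0.88), arl5c (0.86), ENSAMXG00000037633 (0.69), fosab (0.60) and gadd45ba (0.49), over 15 libraries. In gut it was that of ENSAMXG00000018482 (0.77), gadd45ba (0.77), ERRFI1 (0.75), ENSAMXG00000034291 (0.72) and junbb (0.72), also over 15. In muscle no member exceeded 0.64, the value of ENSAMXG00000030721. Among the immediate early members, gadd45ba was among the 5 best matched members in brain and gut, fosab in brain and heart, and junbb in gut. In the other tissues r was 0.00373 in brain and 0.59 in heart for junbb, 0.54 in gut for fosab, 0.74 in heart for gadd45ba, and 0.18 to 0.31 in muscle for all 3. These are descriptions of genes picked for their r.

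**Figure D5:**
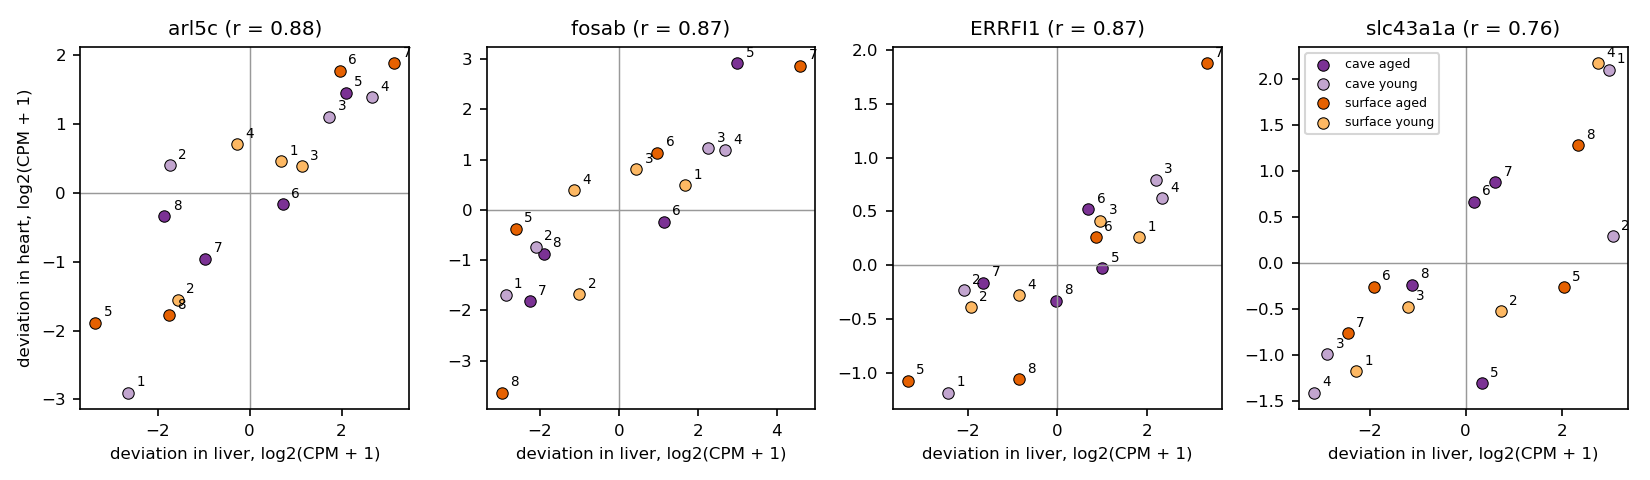
Deviation from the fish-group mean in heart (vertical) against that in the liver library of the same group and number (horizontal), in log2(CPM + 1), for arl5c, fosab, ERRFI1 and slc43a1a; points carry library numbers. The Pearson r over 16 libraries was 0.88, 0.87, 0.87 and 0.76.

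Age was compared within each population. The choice of members used no difference between group means, but their wide spread within groups enters its error. On simulated counts more of the DESeq2 calls were false than its threshold allows, in each of the 3 comparisons. The false share was 17.4% in the aging of surface fish, 28.6% in that of cavefish and 19.5% between cave and surface fish. For edgeR it was smaller, at 2.68%, 7.44% and 2%, though the 7.44% was also above the threshold. Of the changed genes edgeR recovered fewer, at 54.5%, 56% and 73.5%, against 69%, 67.5% and 82.5% for DESeq2. These shares pool changes of different size. At a log2 change of 1, edgeR recovered 0%, 2% and 22% and DESeq2 10%, 8% and 38%, in the same order. At a log2 change of 4, edgeR recovered 96%, 91% and 97% and DESeq2 100%, 95% and 99%. Recovery of changes in the real libraries was not tested. In surface fish, DESeq2 called 5 of the 72 members with an adjusted p (6.94%), against 5.19% of 11807 genes. Of the members 2 were higher in aged fish (2.78%, against 3.11% of the genes) and 3 lower (4.17%, against 2.08%). The other 28 members had none, because of its filter on outlying counts. With its filter on low means turned off, again 72 members had an adjusted p. In aged surface fish igfbp1a rose by 4.27 (SE 0.92, adjusted p = 0.000398) on the log2 scale and amotl2b, an angiomotin family gene of cell junctions, by 3.72 (SE 0.99, adjusted p = 0.00639). Per library, amotl2b gave 9.45, 164, 533 and 7.73 CPM in aged and 6.86, 9.92, 35.7 and 2.46 CPM in young surface fish, so the groups overlapped. Without aged surface 6, the value of igfbp1a was 2.48 (adjusted p = 0.0404 with DESeq2). ENSAMXG00000011421 fell by 4.83 (SE 0.88, adjusted p = 9.61e-06), with 0.987, 57, 93.3 and 19.8 CPM in aged and 408, 360.0, 3075 and 839.8 CPM in young fish. It was the only one of the 5 without overlap, against 57.1% of all 613 called genes. ENSAMXG00000012956 fell by 5.39 and ENSAMXG00000038593 by 2.82, a call that was lost without aged surface 5, 6 or 7 or young surface 1 or 3 (DESeq2 adjusted p between 0.0644 and 0.233). The edgeR quasi-likelihood test called 0 of 85 members, against 0.726% of the genes (0.504% higher and 0.222% lower). At an unadjusted p under 0.05 it had 10 of the 85 members and 1566 of 9918 genes, a smaller share of the members. With DESeq2, leaving out aged surface 8 gave 8 called of 73 members, against 837 of 11766 genes. Leaving out young surface 1 gave 9 of 73, against 637 of 11721 genes.

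In cavefish, DESeq2 called 13 of 75 members (17.3%), against 2.35% of 9339 genes, of which 3 were higher in aged fish (4.00%, against 1.57%) and 10 lower (13.3%, against 0.771%). ENSAMXG00000031634 fell by 5.86 (SE 0.70, adjusted p = 4.00e-13), with 0.411, 1.61, 0.3 and 0.257 CPM in aged and 16.1, 23.8, 155 and 69.4 CPM in young cavefish. The groups did not overlap, as in 6 of the 13 called members (46.2%), against 34.2% of all called genes. In some of the 6 the gap lay near 0. The highest aged and lowest young values were 0.0858 and 0.22 CPM for ENSAMXG00000015502, and 0 and 0.0733 CPM for ENSAMXG00000016703. A count of 0 allows between 0.18 and 0.331 CPM, so these gaps lie within counting error. ENSAMXG00000040073, whose levels by library stand above, fell in aged cavefish (adjusted p = 0.0155), a call that was lost without young cave 2, 3 or 4 (DESeq2 adjusted p between 0.0765 and 0.136). The amino acid transporter gene slc7a3b rose by 2.88 (SE 0.66, adjusted p = 0.00243), with 136, 61.3, 8.6 and 32 CPM in aged and 3.47, 6.38, 16.4 and 23.7 CPM in young cavefish. ENSAMXG00000043781 of group C rose by 5.2 (SE 1.2, adjusted p = 0.00261), with 98.6, 359.8, 27.4 and 2003 CPM in aged and 2.76, 0.953, 105 and 45.5 CPM in young cavefish. Both of these overlapped between the ages. Without aged cave 8, the value of ENSAMXG00000043781 was 3.09 (adjusted p = 0.142 with DESeq2), and the call was also lost without young cave 4 (adjusted p = 0.0762). With edgeR, 0 of 93 members and 0 of 9338 genes were called. At an unadjusted p under 0.05 it had 20 of the 93 members and 1048 of the 9338 genes. All 10 lower members belonged to group A, which was high in young cave 3 and 4. Without young cave 3, DESeq2 called 7 of 62 members, 3 higher and 4 lower in aged fish. Of 6858 genes it then called 79 higher and 29 lower. Fewer members were thus tested, and fewer genes called, than with all libraries. Without young cave 4, DESeq2 called 11 of 61 members, 7 higher and 4 lower, against 140 and 45 of 8566 genes. Young cave 4 and aged cave 7 were also left out together, an alternative chosen after seeing the data. DESeq2 then called 19 of 83 members, 11 higher and 8 lower, against 136 and 57 of 10646 genes. With young cave 4 counted as aged it called 8 of 82 members, all of them higher in aged fish, against 109 of 8564 genes.

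Cave and surface fish were compared with age as a covariate. DESeq2 called 7 of 75 members (9.33%), against 8.1% of 13400 genes, with 1 higher in cavefish (1.33%, against 5% of the genes) and 6 lower (8.00%, against 3.1%). ENSAMXG00000038667 was lower by 3.98 in cavefish (log2 fold change -3.98, SE 0.75, adjusted p = 1.00e-05), with 14.9, 2.99, 4.4 and 3.69 CPM in aged cave, 11.7, 5.43, 61 and 195 CPM in young cave, 2.47, 98.4, 201 and 396 CPM in aged surface and 1684, 29.4, 524 and 79.6 CPM in young surface fish. ENSAMXG00000009027 had a log2 fold change of -3.57 (SE 0.84, adjusted p = 0.000818), with 48.3, 228, 78.6 and 591 CPM in aged cave, 5.83, 6.23, 12.6 and 164 CPM in young cave, 41.8, 359, 2279.6 and 941 CPM in aged surface and 4899, 515, 533 and 1162 CPM in young surface fish. The higher member was ENSAMXG00000012956 (3.41, SE 1.16, adjusted p = 0.0425), with 113, 54.2, 19.7 and 0.172 CPM in aged cave, 26.8, 20.6, 34.4 and 1.54 CPM in young cave, 0, 0.607, 1.17 and 0.546 CPM in aged surface and 47.9, 25.4, 28.1 and 0.42 CPM in young surface fish. That call was lost without aged cave 5, 6 or 7, young surface 3 or 4 or any 1 of the aged surface libraries (DESeq2 adjusted p between 0.0637 and 0.224). All 7 overlapped between the populations, as did most called genes (9.86% did not). The edgeR test called 2 of 99 members, both lower in cavefish (2.02%), against 4% of the genes (2.61% higher and 1.39% lower). Leaving out single libraries changed the count. Without aged cave 6 it was 4 of 72 members, against 964 of 13087 genes. Without aged cave 7 it was 4 of 73, against 906 of 13371. Without young surface 2 it was 11 of 79, against 969 of 13373. Without young cave 4 it was 12 of 75, against 967 of 13335. Without young cave 3 it was 14 of 78, against 1054 of 13374. The 2 aging comparisons and this one share their libraries, so their calls are not independent.

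Of the fasting and gluconeogenesis list, all 10 matched genes had an adjusted p. In aged surface fish DESeq2 called 1 of them higher and 1 lower (3.11% and 2.08% of all genes were), with a median log2 fold change of -0.06, against 0.02 over all genes with an adjusted p. In aged cavefish it called 0, with 6 at an unadjusted p under 0.05 and a median log2 fold change of 1.44, against -0.02 over all genes. Between cave and surface fish it called 1 higher in cavefish (5% of all genes were), with a median of -0.29, against 0.01. Of the immediate early list, 2 of 13 genes with an adjusted p were higher in aged surface fish (median 0.52), against 3.11% of all genes, with 2 at an unadjusted p under 0.05. In aged cavefish 1 of 15 was higher (median 1.05), against 1.57% of all genes, with 8 at an unadjusted p under 0.05. Between cave and surface fish DESeq2 called 0 of 16, with 0 at an unadjusted p under 0.05 (median -0.33). The edgeR test called 0 genes of either list in each comparison, with 0 to 5 at an unadjusted p under 0.05. Over all genes, edgeR gave an unadjusted p under 0.05 to 1566 of 9918 in surface fish and 1048 of 9338 in cavefish. Between cave and surface fish it did so for 1559 of 10030. DESeq2 did so for 2093 of 16252, 1428 of 15751 and 2487 of 16712 genes, in the same order. Among the members of these lists, igfbp1a alone was called by DESeq2, in surface fish, with levels of 64, 2805, 258 and 131 CPM in aged and 91, 7.86, 26.8 and 6.07 CPM in young fish.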

How the data were processed

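RNA from 5 tissues of aged and young cave and surface fish was extracted with TRIzol, selected for polyadenylated messages and sequenced in 78 libraries. The deposited files are tables of raw read counts, 1 for each tissue, with 19076 Ensembl genes as rows, and every column was matched to 1 sample by name. The authors aligned reads with STAR, as their methods state, to version 2 of the A. mexicanus assembly with the annotation of Ensembl release 108. Strand setting, treatment of reads with several positions and filters are not given in the sources used here, so counts of near-identical, overlapping or antisense genes are uncertain. Gene names came from the study's own table of IDs, which gives 1986 IDs a name other than a clone name, and genes without a name there are given by ID. No sequence is shown.

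CPM was 1000000 times a count over the column sum, with a pseudocount of 1 before the log2. Groups of members were cut by average linkage on 1 minus Pearson r of the deviations from fish-group means, at r = 0.6, in Python 3.11.15 (pandas 2.3.3, scipy 1.17.1). Differences were tested in R 4.3.3 with the Wald test of DESeq2 1.42.0, in each population for age and with age as a covariate for cave against surface. Benjamini-Hochberg adjusted p-values under 0.05 over all genes were called, and an empty adjusted p was kept empty. The quasi-likelihood test of edgeR 4.0.16 with TMM scaling, other size factors, filters, pseudocounts, level limits and spread measures, and each library left out were tried as alternatives. The fits and the ranking were tested on simulated counts.

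By a rule, members to name were the 10 with the largest spread and the 6 named genes closest to each group mean. The rule added the called members with the lowest adjusted p (up to 10 a comparison) and the members in the gene lists. It also took the 5 best matched members of each other tissue and the 3 genes on either side of the limit. Not all of these are described. Left out were, among others, ENSAMXG00000009880 and ENSAMXG00000037069 of group B. So were ENSAMXG00000016646, called lower in aged cavefish (DESeq2 adjusted p = 3.64e-05), and ENSAMXG00000039620, called lower in cavefish than in surface fish (DESeq2 adjusted p = 0.000171). The members, the gene lists and this rule were chosen with earlier results of these data known. Lists of pancreas, red blood cell, ovary, oestrogen response, acute phase and interferon genes matched no ID. Lists of muscle, immune, cell cycle, clock, sterol, heat shock, xenobiotic, haem, collagen and hepatocyte genes held no member, and that of fatty acid synthesis held acsl4b and gck. Cave heart libraries 5 to 8 carry conflicting age labels and were grouped as aged. A chi-square of the counts of each of 24 pairs of liver libraries within a fish group gave at least 51.4 per degree of freedom, so no library repeated another within sampling noise.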

Additional observations from a re-analysis of the deposited data

Results flagged for a closer look

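Among the values given by library, 27 members and 8 library measures were examined in each of the 4 fish groups. In 19 of these 140 groups of 4, one library lay far from the others by Dixon's criterion at 95%, which chance alone meets in about 1 of 20 groups of values not chosen for their spread. The members were chosen for spread in these same values, so the flags are a description and no test. Values of members were examined on the log2(CPM + 1) scale and are given in CPM.

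Most of the far libraries carried the genes of group B. Aged cave 7 stood above its group for slc15a1b (288 CPM), ENSAMXG00000009870 (1422 CPM), ldha (135 CPM), the share of counts in gut-specific genes (0.702%) and the mean deviation of group B (4.63). Young cave 4 did so for ldha (457 CPM), the gut-specific share (4.05%) and, outside group B, for pnp5b (68.4 CPM). Aged surface 6 did so for slc15a1b (2.79 CPM), ENSAMXG00000009870 (30.5 CPM), fabp2 (44.6 CPM), ldha (79.4 CPM) and the mean deviation of group B (1.78), and young surface 2 for slc15a1b (42.4 CPM) and ENSAMXG00000009870 (325 CPM). These measures share genes and libraries and are not independent of each other.

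Outside this pattern, ddit4 was far below its group in aged surface 5 (21.1 CPM), and slc7a3b was far above it in young surface 1 (94.8 CPM). ENSAMXG00000040073 in aged cave 8 (2.06 CPM) and ENSAMXG00000031634 in aged cave 6 (1.61 CPM) stood out only at levels near 0.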

How the results depend on the processing

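The choice of members depended on the level limit and on the measure of spread. With a mean of at least 50 CPM, 66 of the 100 were kept, by construction all the members at that level. When the lowest of the 4 SDs was used, 44 were kept. With the 5 abundant genes left out of the totals, 54 were kept (an alternative chosen after seeing the data). Without single libraries, 75 to 97 members were kept and 87 to 95 fell into groups of at least 4 genes, against 89. The edgeR test called 0 members in the aging of cavefish, 0 in the aging of surface fish and 2 between cave and surface fish. DESeq2 called 13, 5 and 7. At an unadjusted edgeR p under 0.05 were 20 of 93 members in the aging of cavefish, against 1048 of 9338 genes. In the aging of surface fish there were 10 of 85, against 1566 of 9918 genes. Counting young cave 4 as aged gave 8 of 82 members with DESeq2 in the aging of cavefish, against 109 of 8564 genes. Without single libraries the DESeq2 counts of members were 7 to 15, 4 to 9 and 4 to 14. Over all genes they were 80 to 239, 362 to 837 and 905 to 1096. Replicate numbers did not pair cave and surface libraries (correlations of their deviations between -0.44 and 0.54). A replicate block gave 12 called of 100 members between cave and surface fish, against 7 without it, and 926 of 13235 genes. Of the refits of the 25 calls, 370 gave the member an adjusted p, and those that gave none were not counted. Of the 370, 282 kept their direction and threshold and 87 lost the threshold. The remaining 1 reversed, ENSAMXG00000038667 with young cave 4 counted as aged (log2 fold change 0.38). In muscle, 8 of 38 members (21.1%) exceeded r = 0.5 with the same-numbered liver library on TMM-scaled values, against 16.2% of the genes. On CPM the same counts were 4 of 38 (10.5%) and 8.41%, so the share of the genes rose as well. In heart TMM scaling gave 25 of 56 members (44.6%), against 27.4% of the genes. On CPM these were 24 of 56 (42.9%) and 16.8%, so the gap was smaller after scaling. The cause of these changes was not tested. With 4 libraries a group and this spread within groups, absence of a call says little, and the labels leave sex and feeding state unknown.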

Other observations

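Some members did not follow the tissue in which they were most abundant. ENSAMXG00000012956, with a gut median of 16169.8 CPM against a liver median of 20.2 CPM, was in no group, and its liver level was low in young cave 4, the library richest in gut-specific counts (1.54 CPM). ENSAMXG00000042964, a gut-specific member (gut median 311 CPM), varied with group A. The pair pnp5a and ENSAMXG00000007973 ran nearly parallel over the 16 liver libraries (r = 1.00), as did ENSAMXG00000021162 and ENSAMXG00000043896 of group B (r = 1.00). Whether such pairs share reads was not tested. The phosphorylase genes pnp5a and pnp5b, in groups A and C, correlated at r = 0.47.

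Genes outside the members also followed group A. Among named genes with a mean of at least 20 CPM, the closest to its mean were cldn15lb, tspo, reep3b, gapdh and cant1b, with r between 0.96 and 0.98, and the most opposed were aars1 (r = -0.90) and gars1 (r = -0.70), which encode aminoacyl-tRNA synthetases. These genes were found by their correlation and were not tested.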
